A study of Mus musculus with 4 samples.

Results

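The genes described are 9 subunits of the transcription factor AP-1, namely Fos, Fosb, Fosl1, Fosl2, Jun, Junb, Jund, Atf3 and Batf, in a mouse Th1 cell clone. They were taken by name, as every probe set annotated to just 1 of these symbols, which gave 13 of the 12488 probe sets on the array. Jund has 1 probe set, as have Fosb, Fosl1, Fosl2, Jun and Batf, whereas Fos and Junb have 2 each and Atf3 has 3. The study compared RNA of the quiescent, untreated clone (2 control arrays) with RNA of the clone in which anergy had been induced by antibody against CD3 fixed to the plate (2 anergic arrays). Th1 cells are CD4 helper T cells that make interferon gamma, and an anergic T cell is one that responds poorly to renewed stimulation. No label gives the strain, the age of the donor mice, the length of the treatment or the time between treatment and harvest, and none states whether the 2 arrays of a group stand for separate cultures. The p-values therefore cover just the spread among the 4 arrays, and part of it may be technical.

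AP-1 is a dimer of proteins that share a basic DNA-binding region and a leucine zipper. Jun proteins pair with themselves or with Fos proteins, while Fos proteins need a partner from another subfamily, so the mixture of subunits in a cell sets which dimers can form. In T cells, AP-1 is assembled after signals through the T cell receptor and CD28, and it binds together with NFAT at cytokine genes such as Il2. Signalling through NFAT without enough AP-1 is a textbook route to anergy.

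The starts of Fos, Fosb and Junb are shown because these 3 genes have the largest differences among the members, in opposite directions. RefSeq promoter windows were found for 8 of the 9 genes. Each stretch runs 5′ to 3′ on the strand of its gene, from 150 bases before the annotated start through the first 10 bases of the transcript, in the build GRCm38.p6. It lies at chr12:85473740-85473899 on the plus strand for Fos, at chr7:19310036-19310195 on the minus strand for Fosb and at chr8:84978739-84978898 on the minus strand for Junb. Capitals mark TATAAA, the core of a TATA box, and TGACG, the first 5 letters of the cyclic AMP response element bound by CREB and ATF proteins.
Fos: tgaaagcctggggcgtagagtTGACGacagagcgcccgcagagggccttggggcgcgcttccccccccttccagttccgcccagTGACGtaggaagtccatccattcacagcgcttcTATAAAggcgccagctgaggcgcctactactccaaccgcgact
Fosb: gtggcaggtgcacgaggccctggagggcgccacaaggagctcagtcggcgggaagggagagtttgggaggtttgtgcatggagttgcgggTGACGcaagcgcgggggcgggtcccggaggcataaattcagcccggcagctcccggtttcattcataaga
Junb: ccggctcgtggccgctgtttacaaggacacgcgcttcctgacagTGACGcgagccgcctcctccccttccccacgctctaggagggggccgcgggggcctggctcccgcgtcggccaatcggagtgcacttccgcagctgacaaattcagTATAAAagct

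Fos has TGACG at 2 places, beginning 129 and 66 bases before the start, and TATAAA 33 bases before it. Fosb has TGACG 60 bases before its start, and Junb has it 106 bases before, with TATAAA beginning at the annotated start itself. Windows of 300 bases, 250 before each start and 50 after it, were searched on both strands. Any element farther upstream, a CArG box included, would have been missed. TGACG was in 5 of the 8 windows (Fos, Fosb, Junb, Atf3 and Batf), against 20.8% of all 32851 promoter windows in the table. TATAAA was in 2 of the 8 (Fos and Junb), against 13.6% of all windows. The AP-1 element TGACTCA was in none of the 8 and in 5.2% of all windows, the complete element TGACGTCA was in none and in 1.79%, and the CArG box of serum response factor was in none and in 1.63%. The NFAT core GGAAA was in 2 of the 8 (Jun and Batf), against 61.3% of all windows. The variant TGACATCA was found in Jun, 45 bases before its start, and in 3.62% of all windows. TGACG is part of TGACGTCA, so those searches overlap. A match of letters is a description of these windows and not a measured binding site.

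The values are linear intensities, which had been scaled before deposit to a trimmed mean of 500.3 on every array. They were compared as log2(value + 29.15), and a difference below is the mean of the anergic arrays minus that of the control arrays on this scale, with its standard error (SE) from limma and a p-value adjusted by the Benjamini-Hochberg method over 7453 tested probe sets. Probe sets with a mean log2 value at or below the 40th percentile, near an intensity of 92.4, were not tested. Of the 13 AP-1 probe sets, 9 passed this filter and represent 7 of the 9 genes. The bacterial spike-in controls were brighter on control array 2, at a geometric mean of 1972 against 870 to 1014 on the other arrays, so values without it are given for the tested members and the called list genes. Of 9 T cell markers on the array 8 passed the filter, among them Cd3e at 5974 to 10101.8, Cd4 at 3941.8 to 5106 and Thy1 at 7300.7 to 13440.1 over the 4 arrays, while Cd5 was below it at 19.8 to 130.5. Of the CD8 and NK cell markers, Cd8a was at 6.2 to 18 but Klrd1, an NK receptor gene, was at 4303.9 to 5510.9. Among markers of other cell types, Cd68 rose from 71 and 91.3 to 497.6 and 531.5 in anergic cells (log2 difference 2.31, adjusted p = 0.0216), and it is also known from lysosomes of other cells. It was the 1 called gene among 6 tested macrophage and dendritic cell markers, whose summed level over 9 genes was 1532 and 2000 in control and 1608 and 2265 in anergic cells. None of the 3 B cell, 2 granulocyte and mast cell, 1 CD8 and NK cell or 3 stromal markers tested was called. The summed level of 6 stromal markers was 3333 and 4367 in control and 5745 and 5813 in anergic cells, mostly from Lum, and its part in the results was not tested.

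**Figure D1:**
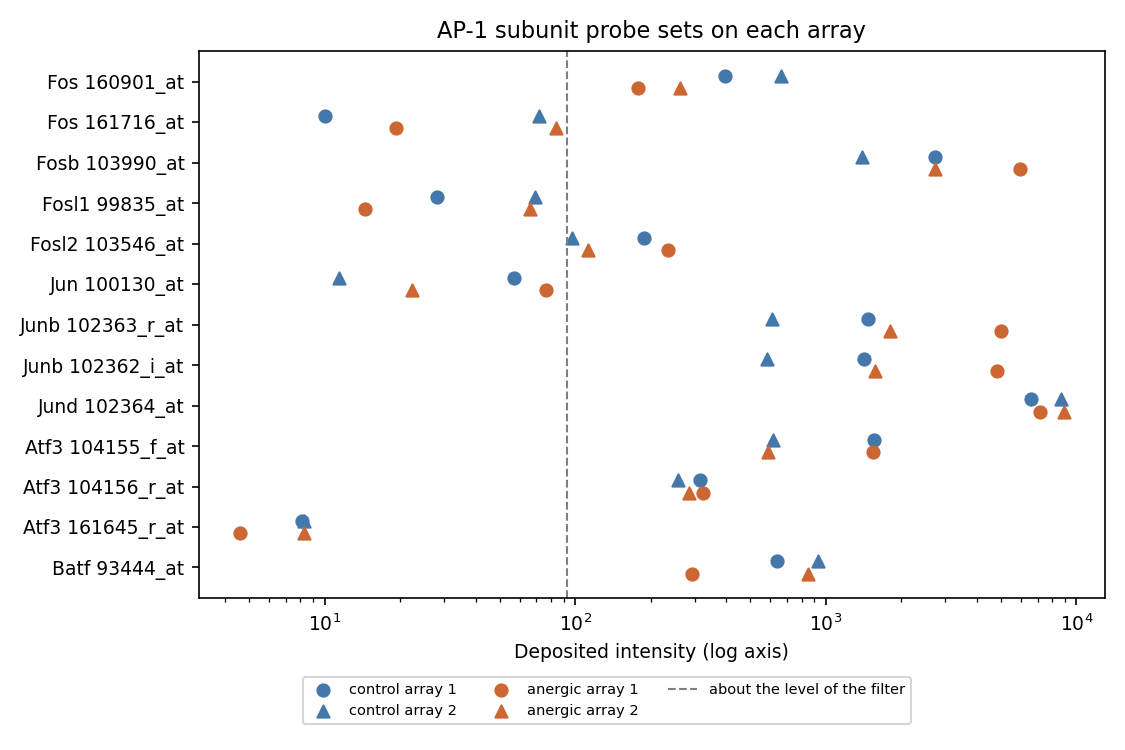
Deposited intensity (x axis, log scale) of the 13 AP-1 subunit probe sets (y axis) on each of the 4 arrays, with control arrays in blue, anergic arrays in orange, circles for array 1 and triangles for array 2. The dashed line marks an intensity of 92.4, about the level of the filter. Both Junb probe sets and Fosb lie higher in anergic cells and Fos 160901_at lies lower, while Jund, the Atf3 probe sets, Fosl2 and Batf overlap between the groups.

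In anergic cells Junb and Fosb were brighter and Fos was dimmer than in resting cells, while Batf was at -0.59 with overlapping groups. Jund, Atf3 and Fosl2 showed small estimated differences. Their 95% confidence intervals were wide for Atf3 104155_f_at (-1.25 to 1.16) and Fosl2 (-0.9 to 1.35), so larger differences in either direction are not excluded. None of the 9 tested AP-1 probe sets passed an adjusted p of 0.05 in limma, where 100 of all 7453 did (1.34%). At an unadjusted p under 0.05 there were 4 (2 for Junb, 1 for Fosb and 1 for Fos), against 11.3% of all tested probe sets. The same 4 were the probe sets whose groups did not overlap, 3 with both anergic arrays above both control arrays (16.8% of all tested probe sets) and 1 with both below (23.5%), or 40.3% of all tested probe sets in either direction. The share of members, 44.4%, is close to this background and is not a result about AP-1. The median difference of the 9 probe sets was 0.0863, against -0.0855 for all tested probe sets, and their range was -1.14 to 1.64. By sign, 6 were higher and 3 lower in anergic cells.

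Junb encodes a Jun protein that can oppose c-Jun and that is induced early after T cell stimulation. Its brighter probe set, 102363_r_at, read 1472.3 and 607.7 on control arrays 1 and 2 and 5020.6 and 1807.1 on anergic arrays 1 and 2. Both anergic values lie above both control values, but anergic array 2 is much nearer to control array 1 than to anergic array 1. The means were 1040 ± 611 and 3414 ± 2272 (SD, n = 2 each), with anergic above control by a ratio of 3.28. The log2 difference was 1.64 ± 0.52 (SE), with a 95% confidence interval of 0.43 to 2.84 and adjusted p = 0.258 in limma. The other probe set, 102362_i_at, read 1424.3 and 583 in control and 4831.3 and 1566.1 in anergic cells, a log2 difference of 1.56 ± 0.55 (adjusted p = 0.316). Both were designed from the same deposited sequence, so they repeat 1 measurement rather than replicate it. The suffixes mark probe sets for which the usual selection of probes had been relaxed.

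The size of the Junb difference depended on which arrays were used. For 102363_r_at it was 2.26 without control array 1, 1.02 without control array 2 and 2.37 without anergic array 2. Without anergic array 1 it was 0.91. For 102362_i_at the corresponding values were 2.19, 0.94, 2.37 and 0.76. The sign was the same each time. In such a fit the lone array of a group is assumed to vary like the pair in the other group.

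Jund encodes the Jun protein that is present in resting cells and is known to slow their growth. It was bright on every array, at 6560.8 and 8701.4 in control and 7125.8 and 8887 in anergic cells. The groups overlapped, and the means of 7631 ± 1514 and 8006 ± 1245 (SD, n = 2 each) differed by less than the spread within either group. The log2 difference was 0.07 ± 0.24 (SE, limma adjusted p = 0.956), with a 95% confidence interval of -0.48 to 0.63, a range that holds differences in either direction. It was 0.28 without control array 2, and its sign turned to -0.13 without control array 1 and to -0.08 without anergic array 2.

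Jun, which encodes c-Jun, the founding member of the family, was dim. Its probe set read 56.7 and 11.4 in control and 76.4 and 22.3 in anergic cells, below the filter on every array. With no filter its log2 difference was 0.32 ± 0.50 (SE, limma adjusted p = 0.956). A low value was treated as measured, since detection calls were not used here, and a low reading of 1 probe set does not show that the transcript was missing.

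Fosb encodes a Fos protein that, like Fos, is an immediate early gene product, and it also gives a shortened form by splicing that this probe set was not shown to separate. It read 2722.5 and 1399.5 in control and 5964.4 and 2727.3 in anergic cells. The groups did not overlap. Control array 1 and anergic array 2 were nearly level. The means were 2061 ± 936 and 4346 ± 2289 (SD, n = 2 each), a ratio of 2.11. The log2 difference was 1.04 ± 0.42 (SE), with a 95% confidence interval of 0.07 to 2 and adjusted p = 0.398 in limma. Without control array 1 it was 1.51. It was 0.56 without control array 2, 0.48 without anergic array 1 and 1.6 without anergic array 2.

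Fos encodes c-Fos, the partner of Jun proteins in the AP-1 dimer that forms soon after stimulation. Its brighter probe set, 160901_at, read 396.1 and 661.1 in control and 177.8 and 262.6 in anergic cells. Every anergic value was below every control value. The means were 529 ± 187 and 220.2 ± 60 (SD, n = 2 each), and control was above anergic by a ratio of 2.4. The log2 difference was -1.14 ± 0.37 (SE), with a 95% confidence interval of -1.99 to -0.29 and adjusted p = 0.264 in limma. Leaving out control array 1 or control array 2 gave -1.49 or -0.79. Leaving out anergic array 1 or anergic array 2 gave -0.89 or -1.39. The second Fos probe set, 161716_at, stayed below the filter at 10 and 71.8 in control and 19.3 and 83.8 in anergic cells. With no filter it differed by 0.23 ± 0.57 (SE, adjusted p = 0.972), the opposite sign with an SE larger than the difference, so the lower level of Fos rests on 1 probe set.

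Junb and Fos can be compared within each array, where a common scaling of the array cancels apart from the pseudocount. The log2 value of Junb minus that of Fos was 1.82 and -0.12 on control arrays 1 and 2 and 4.61 and 2.65 on anergic arrays 1 and 2. The means were 0.85 ± 1.37 and 3.63 ± 1.38 (SD, n = 2 each), a difference of 2.78 between the groups. It ranged from 1.8 to 3.76 over 9 alternatives. The pair was chosen with its values known, 1 gene being higher and the other lower on both anergic arrays, and that choice fixes the separation of the groups, so these values are a description with no test.

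**Figure D2:**
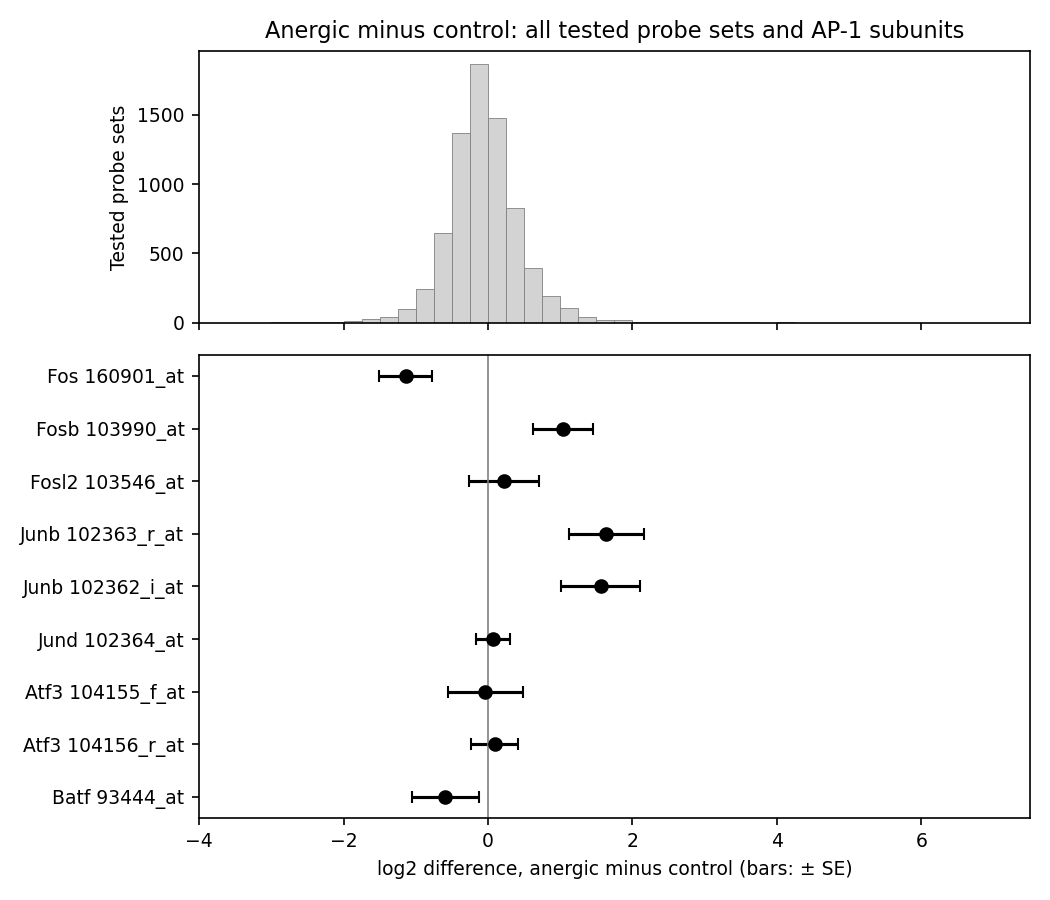
Upper panel, number of tested probe sets (y axis) by log2 difference, anergic minus control (x axis, bins of 0.25), for all 7453. Lower panel, the same difference for the 9 tested AP-1 subunit probe sets, as points with bars of ± SE. The Junb probe sets at 1.64 and 1.56, Fosb at 1.04 and Fos at -1.14 lie away from 0 with bars that do not reach it, as does Batf at -0.59, and none passed an adjusted p of 0.05.

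Fosl1 and Fosl2 encode the Fos-related proteins Fra-1 and Fra-2, which lack the strong activation domain of c-Fos. Fosl2 read 188.5 and 97 in control and 234.9 and 112.3 in anergic cells, with overlapping groups. Its log2 difference was 0.22 ± 0.49 (SE, limma adjusted p = 0.93, 95% confidence interval -0.9 to 1.35), and it was negative without control array 2 (-0.17) and without anergic array 1 (-0.23). Fosl1 was below the filter, at 28.1 and 68.8 in control and 14.5 and 66 in anergic cells. With no filter it differed by -0.22 ± 0.49 (SE, limma adjusted p = 0.969).

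Atf3 encodes a stress-induced factor that can repress transcription. Its brightest probe set, 104155_f_at, read 1562.6 and 615.7 in control and 1537 and 588.2 in anergic cells. The values thus differed 2.54-fold between the control arrays and 2.61-fold between the anergic arrays, while the means of the groups were almost the same (1089 ± 670 and 1063 ± 671, SD, n = 2 each). Its log2 difference was -0.04 ± 0.52 (SE, limma adjusted p = 0.987, 95% confidence interval -1.25 to 1.16), and it was 0.61 without control array 1, -0.69 without control array 2, -0.71 without anergic array 1 and 0.63 without anergic array 2. The suffix marks a probe set that may also bind related transcripts. The second probe set, 104156_r_at, designed from the same sequence, read 314.3 and 256.8 in control and 323.1 and 285.1 in anergic cells, a log2 difference of 0.09 ± 0.32 (adjusted p = 0.965), or -0.05 without control array 2. It varied much less between arrays 1 and 2 than 104155_f_at did. The third, 161645_r_at, was near the bottom of the scale at 8.1 and 8.3 in control and 4.6 and 8.3 in anergic cells.

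Batf encodes a factor that pairs with Jun proteins in place of Fos and binds DNA with IRF4 in T cells. It read 640.9 and 926.4 in control and 292.1 and 846.5 in anergic cells. Anergic array 1 was the low value, and anergic array 2 lay between the control arrays. The means were 784 ± 202 and 569 ± 392 (SD, n = 2 each), and the log2 difference was -0.59 ± 0.46 (SE, limma adjusted p = 0.73, 95% confidence interval -1.65 to 0.47). Without control array 2 the difference was -0.34. Without anergic array 1 it was 0.13, so the negative sign rests on that array.

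Across the arrays the AP-1 probe sets fell into a pattern by array number as well as by group. In all 9 tested probe sets, and in all 13 when those below the filter are counted, the order of arrays 1 and 2 was the same in control and in anergic cells. Among all tested probe sets this holds for 70.4%, and no such share was computed with those below the filter. Junb and Atf3 each enter with probe sets designed from the same sequence. The median intensity was also higher on array 2 than on array 1, at 191.2 against 146.5 in control and 175.8 against 134.1 in anergic cells. Array 1 was higher than array 2 in both groups for 6 of the 9, those of Junb, Fosb, Fosl2 and Atf3, and lower in both for Fos, Jund and Batf. For Junb 102363_r_at the ratio of array 1 to array 2 was 2.42 in control and 2.78 in anergic cells, against the ratio of 3.28 between the group means. No label says what the array numbers stand for. A fit with these numbers as a term gave other counts and is described in the last section.

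**Figure D3:**
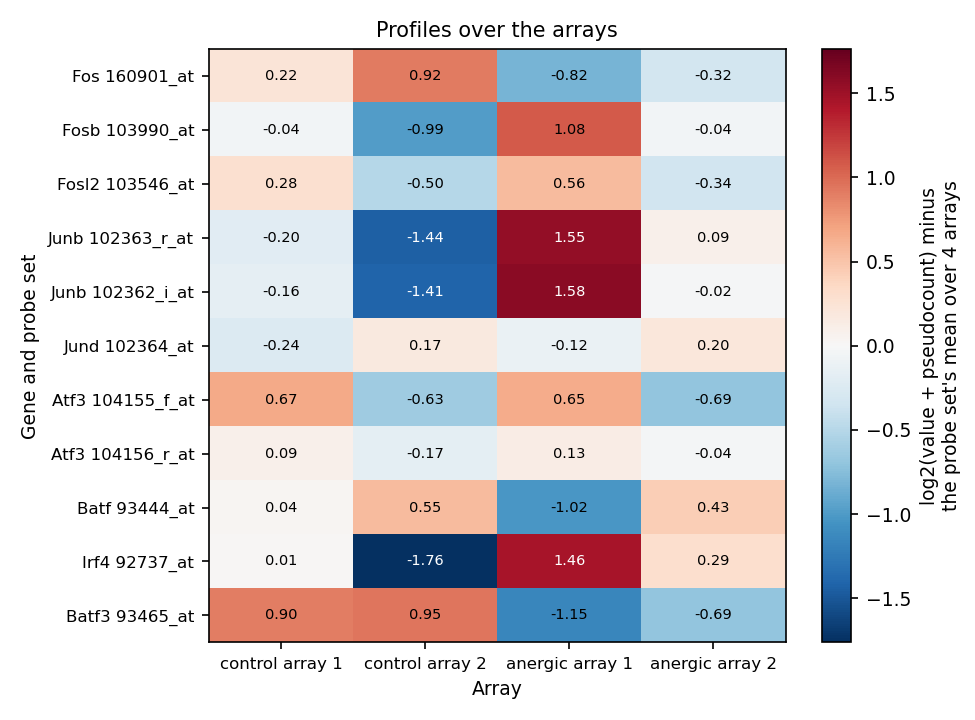
Colour and printed number give log2(value + 29.15) minus the mean of that probe set over the 4 arrays, for the 9 tested AP-1 subunit probe sets and for Irf4 and Batf3 (rows) on each array (columns). Junb, Fosb and Irf4 are lowest on control array 2 and highest on anergic array 1, Fos has the opposite pattern, and Batf3 differs more between the groups than within them.

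The genes with the most similar profiles were sought for Junb, Fos and Fosb, the 3 members with the largest differences, among 5576 other named genes at 1 probe set each. Likeness was the Euclidean distance between log2 profiles over the 4 arrays, each centred on its own mean, where 0 is an identical shape. Nearest to Junb were Tg (distance 0.398), Nsg2 (0.401) and Irf4 (0.446). Tg read 70.1 and 32.6 in control and 375.4 and 109.3 in anergic cells. Nsg2 read 99.1 and 34.5 in control and 440.2 and 199 in anergic cells. The control values of both lie near or below the filter level of 92.4. Irf4 read 811.4 and 216.3 in control and 2257 and 988.1 in anergic cells. Nearest to Fos were Slc38a2 (0.12), Cry1 (0.179) and Kpnb1 (0.192). Slc38a2, an amino acid transporter gene, read 595.2 and 1015.6 in control and 302.1 and 388.8 in anergic cells. Nearest to Fosb were Slc25a10 (0.231), Tcn2 (0.338) and Bmi1 (0.339). These distances over 4 arrays carry no test.

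Other genes of the pathway were taken from 5 lists, each gene at its brightest probe set. Over all 5583 named genes tested this way, 58 were called higher (1.04%) and 29 lower (0.519%), with a median difference of -0.085. At an unadjusted p under 0.05 in limma, 335 were higher and 335 lower. These counts were 1 and 1 of 16 other basic leucine zipper factors and 1 and 0 of 18 inducing kinases and factors. They were 3 and 2 of 11 negative regulators, 1 and 1 of 12 DNA-binding partners, and 5 and 0 of 14 responsive genes.

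Of the other basic leucine zipper factors, Batf3 fell. Batf3, which encodes a close relative of Batf that also pairs with Jun proteins, read 1488.7 and 1538.2 in control and 337.1 and 474.1 in anergic cells. The arrays of each group were close together and far from the other group. The log2 difference was -1.85 ± 0.28 (SE, limma adjusted p = 0.0209). Without control array 2 it was -1.82. The call was lost on leaving out anergic array 1 (-1.62). It was also lost with each array centred on its median (-1.74, limma adjusted p = 0.0701) or with no intensity trend in limma (-1.85, adjusted p = 0.0921). The other 15 of 16 tested genes, from 26 listed, did not pass, among them Nfe2l1 at 0.79 ± 0.24 (adjusted p = 0.231), Cebpg at 0.79 ± 0.39 and Crem, a cyclic AMP response factor gene, at -0.42 ± 0.35. The median of the list was 0.0126.

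None of 18 tested kinases and factors that induce Fos and Jun, from 29 listed, passed in limma, and their median was 0.0266. The 1 gene among them with an unadjusted p under 0.05, Map2k1, encodes the MEK1 kinase that activates ERK, and it read 1424.9 and 1777.1 in control and 3165.9 and 2782.1 in anergic cells (log2 difference 0.89 ± 0.24, SE, adjusted p = 0.166). Without control array 2 it was 1.04. Elk3, a partner of serum response factor, was at 0.52 ± 0.31, the protein kinase C gene Prkcq at 0.46 ± 0.35 and the p38 gene Mapk14 at -0.43 ± 0.22.

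Among 11 tested negative regulators of AP-1 and of its transcripts, from 17 listed, Zfp36l1 fell and 10 did not pass, with a median of -0.0565. Zfp36l1, which encodes a protein that promotes decay of AU-rich messenger RNAs, read 2942.8 and 3676.5 in control and 1408.1 and 871.1 in anergic cells (log2 difference -1.54 ± 0.29, SE, limma adjusted p = 0.0496). The call lies at the threshold and was lost in 8 of 14 alternatives, with values from -1.88 to -1.21 over all 14. The fits without anergic array 1 and without anergic array 2 were among the 8. Leaving out control array 2 gave -1.39 for Zfp36l1. Its relative Zfp36, also a decay factor, had the opposite sign at 1.06 ± 0.35 (limma adjusted p = 0.266), and without control array 2 it was 1.18. The phosphatase genes Dusp1 and Dusp6, which switch off MAP kinases, were at 0.92 ± 0.29 and -1.57 ± 0.35 (adjusted p = 0.241 and 0.0969). Dusp1 was at 1.26 without control array 2. Dusp6 passed when the fit was made over genes rather than probe sets (limma adjusted p = 0.0482). Dusp6 was at -1.46 without control array 1 and -1.68 without control array 2. It was at -2.08 without anergic array 1 and -1.06 without anergic array 2.

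None of 12 tested factors that bind DNA together with AP-1 in T cells, from 18 listed, passed in limma, and their median was -0.131. At an unadjusted p under 0.05 there were 2, Irf4 and Smad4, against 335 higher and 335 lower of all 5583 named genes. Irf4, the partner of Batf and Jun proteins, was at 1.75 ± 0.58 (SE, limma adjusted p = 0.278), and at 2.64 without control array 1. It was 0.86 without control array 2 and 1.16 without anergic array 1. Smad4, the common partner of receptor-activated Smads, was at -0.68 ± 0.26. Nfatc1, encoding an NFAT protein, was at 0.44 ± 0.28, and Ets1 at 0.37 ± 0.26.

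Of 14 tested AP-1 responsive genes of T cells, from 25 listed, the chemokine genes Ccl3 and Ccl4 rose and 12 did not pass, with a median of 0.299. Ccl3 read 717.4 and 573.3 in control and 4511.1 and 4603.7 in anergic cells (log2 difference 2.77 ± 0.24, SE, limma adjusted p = 0.00189). Ccl4 read 134.7 and 49 in control and 948.4 and 840.2 in anergic cells (log2 difference 3.03 ± 0.41, SE, limma adjusted p = 0.0142). Its call was lost when anergic array 1 was left out (2.94). Without control array 2 Ccl3 was at 2.62 and Ccl4 at 2.49. Il2ra, the gene of the interleukin 2 receptor alpha chain, was at 1.17 ± 0.36 and Ifng at 0.86 ± 0.24 (adjusted p = 0.24 and 0.184). Without control array 2 they were at 1.61 and 1.01. The gene list was chosen for responsiveness in general, and no binding of AP-1 to these genes was measured. Il2, the cytokine gene for which joint binding of NFAT and AP-1 was worked out, was below the filter at 5.7 and 5.5 in control and 2.8 and 6 in anergic cells.

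**Figure D4:**
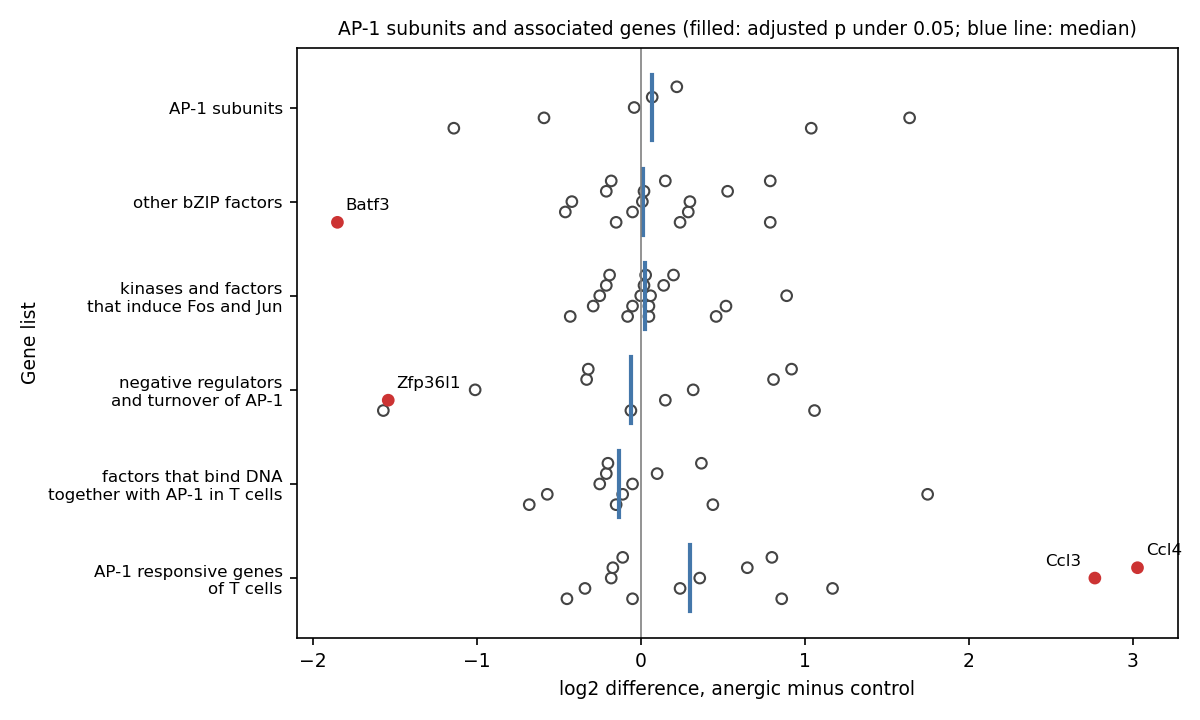
Log2 difference, anergic minus control (x axis), of every tested gene in the AP-1 subunit list and in 5 lists of associated genes (y axis), 1 probe set per gene. Filled points passed an adjusted p of 0.05, open points did not, and the blue lines are list medians. The 4 filled points are Batf3 and Zfp36l1 on the left and Ccl3 and Ccl4 on the right, and no AP-1 subunit is among them.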

How the data were processed

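RNA from 2 control and 2 anergic samples was hybridised as biotin-labelled cRNA to 1 array each, per the labels' protocols. The deposited intensities hold 1 value per probe set, on a linear scale, and had been scaled before deposit. The scanner software, background correction and summary of probes are not given in the sources used. No detection calls were used, and the number of arrays limits the precision. Groups came from the sample titles. GEO's annotation of the platform supplied gene symbols, which were checked by gene ID against RefSeq (GRCm38.p6). Of 12422 probe sets other than 66 controls, 10833 had 1 symbol, 396 several and 1193 were not listed.

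Intensities were transformed as log2(value + 29.15), the pseudocount being the median over arrays of the 20th percentile. The scale was kept because trimmed means were equal within 1.1-fold. Control probe sets were left out, as were those at or below the 40th percentile of mean log2 value. The comparison used lmFit and eBayes of limma 3.58.1 under R 4.3.3, with the prior variance following intensity and two-sided p-values, with Benjamini-Hochberg adjustment over all 7453 tested probe sets at 0.05. The main fit had 2 residual and 6.17 prior degrees of freedom, and the fit with the replicate number as a term had 1 and 12.1. Fits without 1 array had 1 residual and 9.98 to 176 prior degrees of freedom, so their p-values rest mostly on a spread pooled over probe sets. The other alternatives had 2 residual and 4.29 to 7.74 prior degrees of freedom. Genes of the associated lists were taken at their brightest probe set, and the text names the up to 4 with the smallest p in each list, plus the 3 genes nearest in profile to Junb, Fos and Fosb, and marker genes and Il2 outside that rule. The script was tested on data simulated with independent noise on each array. That test does not cover the pattern by array number described above. The members and lists were chosen with earlier results of these data known. Alternatives covered the pseudocount, the filter, the normalization, the trend, the replicate number, 1 row per gene and leaving out each array.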

Additional observations from a re-analysis of the deposited data

How the results depend on the processing

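Of all tested probe sets 100 were called. The count was 59 with no filter, 64 with each array centred on its median, 38 with no intensity trend and 761 with a replicate block (the number in the titles as a term), and from 43 to 344 when 1 array was left out. Centring moved the share called higher from 68% to 81.2%. Without control array 1 or 2 the spread came from the anergic arrays alone, and the counts were 283 and 344.

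The AP-1 count of 0 rose to 4 in the fit with the replicate block and was 0 to 3 when 1 array was left out. With the block the limma adjusted p was 0.000125 and 0.000228 for the Junb probe sets, 0.00328 for Fosb and 0.00604 for Fos, with unchanged differences. The array numbers are not stated to pair the samples. The deviations of same-numbered arrays correlated at 0.537 over probe sets, and with 2 pairs this does not establish a pairing. For Junb 102363_r_at, anergic array 1 over control array 1 was 3.41 and anergic array 2 over control array 2 was 2.97, and the same ratios were 2.19 and 1.95 for Fosb and 0.449 and 0.397 for Fos.

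With the block the bZIP list had 2 calls among 16 tested genes, and inducing kinases and factors had 1 among 18. Negative regulators had 6 among 11, Dusp6 included (limma adjusted p = 0.000572). DNA-binding partners had 2 among 12 and responsive genes 5 among 14. Beside these stand the 761 of all 7453 tested probe sets called with the block, whereas the lists count genes at 1 probe set each. The bZIP list had 0 with centring and with no trend. Negative regulators had 0 with a pseudocount of 1, no filter, the stricter filter, quantile normalization, centring or no trend, and 2 with 1 row per gene by either rule.

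Signs turned for Atf3, Fosl2, Jund and Batf. Centring gave 0.06 for Atf3 104155_f_at. The mean of the tested Atf3 probe sets, taken as 1 row for the gene, gave 0.02. Leaving out 1 array gave -0.71 to 0.63 for Atf3 104155_f_at and -0.05 to 0.22 for Atf3 104156_r_at. It gave -0.23 to 0.67 for Fosl2, -0.13 to 0.28 for Jund and -1.32 to 0.13 for Batf. The tested probe sets of Junb, Fosb and Fos had the same sign under every alternative that gave them a value. The cause of these changes was not tested.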
